A study of Mus musculus with 12 samples.

Results

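The comparison described here sets lymphoma cells carrying TFEB-ERT2 against cells of the same lymphoma carrying an empty vector, with both lines kept in 4-hydroxytamoxifen (4-OHT). It uses the 6 of 12 RNA-seq libraries that received 4-OHT, 3 from each line, and the 13111 of 23479 genes that reached 10 normalized counts in 3 or more of the 12 libraries. Since the ligand is the same on both sides, it shows the end state of the TFEB line relative to the vector line, including any difference between the lines that exists without ligand. Both lines descend from 1 B cell lymphoma of a C57BL/6 mouse with the transgenes Eµ-Myc and Eµ-rtTA, the first of which drives Myc from an immunoglobulin heavy chain enhancer. The labels give lymph node as the source tissue. Vector cells (Vec) carried a retrovirus with puromycin resistance alone, and TFEB cells carried puromycin resistance and TFEB with Ser-211 changed to Ala, joined to ERT2, which is the human estrogen receptor's ligand domain in mutated form. Both were selected with puromycin and grown with interleukin-7, and the 4-OHT was given for 4 days. The dose is 250 nM in the protocols of the labels, whereas the design text has that figure with ng/mL as its unit, and which is right is unknown. The other 6 libraries, 3 of each line in vehicle, were used to measure the line difference without ligand. The labels do not say whether the 3 replicates of a group were separate cultures or separate transductions. A p-value here therefore reflects the spread of these samples alone, which may be technical.

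TFEB is a basic helix-loop-helix transcription factor of the MiT family that binds E-box sequences in the promoters of lysosome and autophagy genes. In fed cells mTORC1 phosphorylates it at the lysosome and holds it in the cytoplasm, and an alanine at the mutated serine removes a main site of that retention. An ERT2 fusion is held inactive by chaperones until it binds 4-OHT. In B cells TFEB acts beside MYC, which binds related E-boxes and drives growth and division.

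Values are normalized read counts, that is gene reads divided by 1 size factor per library, and levels are compared between libraries for 1 gene at a time, not between genes. The 6 libraries in 4-OHT held 12251456 to 19315510 reads. Between 11892 and 19250 genes had reads, with the highest numbers in vector library 2 (19057) and TFEB libraries 2 (19250) and 3 (16563), so genes near 0 often had a few reads in those 3 libraries only. Rn45s, the ribosomal RNA precursor, took 4.13 to 4.53% of reads in TFEB cells and 4.80 to 5.82% in vector cells, with no overlap, and its part in the results was not tested. The B lineage gene Cd79a, which encodes a B cell receptor subunit, was abundant in both lines, with 8469 to 9223 in TFEB cells and 7493 to 8996 in vector cells. In bulk RNA, a smaller share of cells expressing a gene and less RNA per cell cannot be told apart.

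A gene is said to be called where limma, fitted to all tested genes on log2(value + 1), gave an adjusted p under 0.05. TFEB and vector cells in 4-OHT differed in 3553 genes, 27.1% of those tested. Of these, 1785 (13.6%) were higher and 1768 (13.5%) lower in TFEB cells. Every count of list members below is to be read beside these shares over all tested genes. The difference was at least 2-fold for 676 higher and 416 lower genes, and at least 8-fold for 206 and 89. The 3 TFEB libraries lay wholly above or wholly below the 3 vector libraries for 5122 genes (39.1%), 2645 above and 2477 below, and 99 called genes had groups that overlapped. The median difference over all tested genes was 0.05 on the log2 scale. The share called grew with the level of the gene, from 4.87% of genes with a mean under 50 over the 6 libraries to 50.8% of those from 5000 upward, while the median fold of the called genes ran from 10.3 down to 1.35 between the same classes.

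Tfeb itself was higher in the TFEB line. It had 702, 581 and 711 normalized counts in TFEB cells and 231, 195 and 238 in vector cells, a 2.99-fold difference (log2 1.58 ± 0.15 SE, limma adjusted p = 7.0e-10). All 3 TFEB libraries were above the vector libraries. In vehicle Tfeb was also called higher in TFEB cells. Its interaction (the line difference in 4-OHT minus that in vehicle) was called and negative, so the line difference was smaller with ligand. The sources used here do not name the species of the fusion's TFEB, and reads of the transgene and of the endogenous gene cannot be divided. The related Mitf had 45.3 ± 23 (SD, n = 3) against 27.9 ± 12.8 and was not called (limma adjusted p = 0.602). Tfe3 was at 15.5, 0.97 and 0 in TFEB cells and at 19.0, 0 and 0 in vector cells, with its reads mostly in library 2 of each line, and was not called (limma adjusted p = 0.959). Tfec, at 14.2 or less in every library, was not tested. Esr1, the mouse estrogen receptor gene, was at 91.1 ± 7.53 against 124 ± 14.2 and was not called (limma adjusted p = 0.289).

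The largest rises were genes with almost no reads in vector cells, and they encode secreted proteins, receptors, enzymes and a nuclear coactivator. Fam46c, a poly(A) polymerase known from plasma cells, had 3101, 3146 and 3414 in TFEB cells and 9.66, 3.56 and 0 in vector cells (limma adjusted p = 7.71e-10). The chemokine gene Ccl3 had 1494, 1666 and 1774 against 0, 3.56 and 0 (limma adjusted p = 1.3e-08). Both were at 0 in all 3 TFEB libraries in vehicle. Ccl4, its neighbour in the chemokine family, had 279 ± 15.5 against 4.35 ± 7.53. Angptl2, a secreted angiopoietin-like protein, had 1225 ± 86.3 against 5.14 ± 8.90, and Spp1, which encodes osteopontin, 882 ± 70.8 against 16.7 ± 15.6. Plau, the urokinase protease, had 247 ± 40.2 against 0.395 ± 0.685.

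Among receptors and enzymes, Lilrb4, an inhibitory receptor, had 1103, 1110 and 1747 in TFEB cells and 0, 2.37 and 0 in vector cells. Its near-identical paralog Gp49a had 591, 430 and 709 and was at 0 in all 3 vector libraries, at least 162-fold higher when vector cells are set to the floor of 3 reads per library. Reads of this pair may have been assigned to either gene, so the split between them is uncertain. Hpgds, a prostaglandin D synthase, had 540, 480 and 638 and was likewise at 0 in vector cells, at least 155-fold higher. Mylk4, a myosin light chain kinase, had 1823 ± 257 against 6.72 ± 11.6. Cd28, a costimulatory receptor of T cells that plasma cells also carry, had 401 ± 28.8 against 3.56 ± 6.16. Ppargc1a, whose product PGC-1 alpha promotes mitochondrial genes, had 833, 941 and 806 against 0, 30.8 and 0. In each of these genes every TFEB library was far above every vector library.

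Going by level rather than fold, 11 genes had at least 100 normalized counts in every TFEB library and under 10 in every vector library in 4-OHT. They were Ccl3, Fam46c, Gp49a, Gpnmb, Hpgds, Kifc3, Kynu, Lilrb4, Plau, Ankrd45 and 4922502D21Rik. The TFEB line in vehicle had a mean under 10 for 9 of them, and 10 had a called interaction, which is the line difference in 4-OHT minus that in vehicle. In the other direction 4 genes met the same limits with the lines exchanged, namely Heyl, Popdc3, Spns3 and Umod. These limits were chosen after the values were seen.

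Falls among the largest included genes of B cell signalling and of antigen receptor recombination. Blk, a B cell tyrosine kinase, had 0, 12.9 and 12.6 in TFEB cells and 277, 237 and 232 in vector cells, 43.3-fold lower (log2 -5.44 ± 0.59 SE, limma adjusted p = 9.19e-09). Rag2, a subunit of the recombinase, had 10.8, 38.7 and 5.82 against 405, 380 and 207, 21.6-fold lower. Umod, which encodes uromodulin, had 7.53, 2.58 and 5.82 against 247, 222 and 240. Reln, which encodes the extracellular protein reelin, had 155, 141 and 132 against 2561, 3102 and 2956, with little spread in either line. B3gnt8, a glycosyltransferase, was 43.2-fold lower, Pdzd2, a PDZ domain protein, 27.7-fold, Svil, the actin-binding supervillin, 25.6-fold, and Sertad4 23.9-fold. All 12 of the largest falls, like all 12 rises, had groups that did not overlap, as the rule for naming them required.

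**Figure D1:**
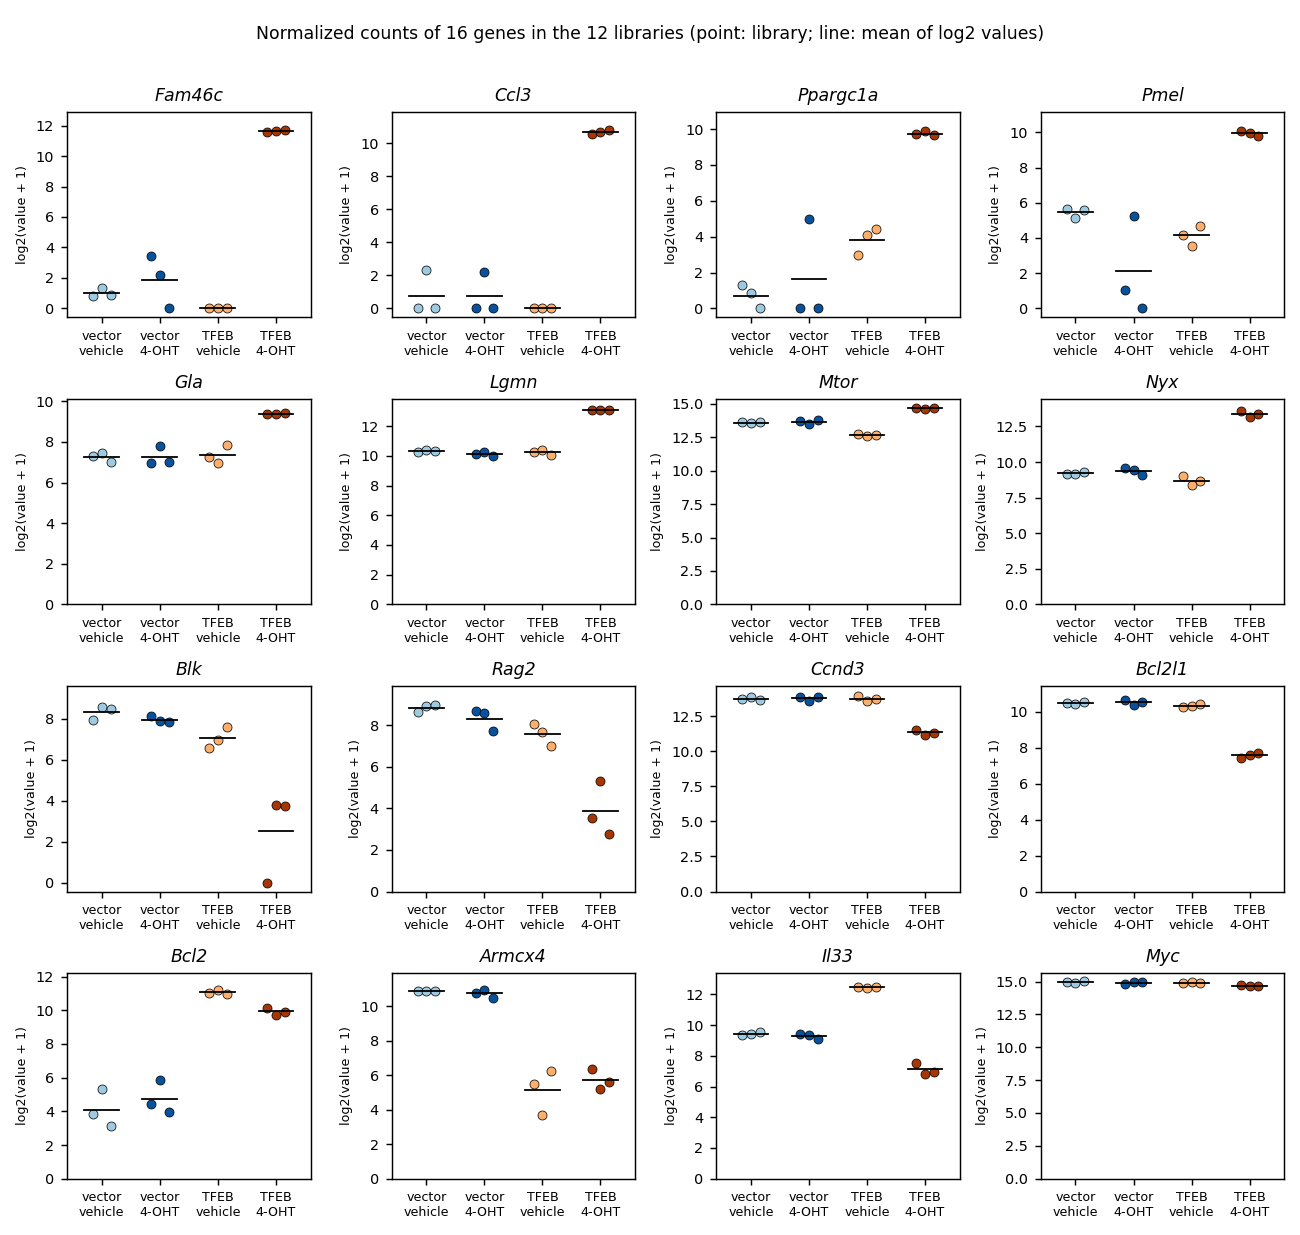
Log2(value + 1) of 16 genes in the 12 libraries, with 1 point per library and a line at the mean of the 3 libraries of each group. Fam46c, Ccl3, Ppargc1a and Pmel are near 0 or low outside TFEB cells in 4-OHT, Bcl2 and Armcx4 differ between the lines with and without ligand, and Il33 lies above vector cells in vehicle and below them in 4-OHT.

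The line difference in vehicle was smaller in number. There 705 genes were called (5.38%), 379 higher and 326 lower in TFEB cells. The group means compared in 4-OHT and in vehicle share no library. Both comparisons came from the same fit, however, in which the spread of each gene was estimated from all libraries together. The calls in 4-OHT and in vehicle are therefore not independent of each other. Genes called in both numbered 456, which is 12.8% of the 4-OHT calls and 64.7% of the vehicle calls. Of these, 358 had the same direction, 191 higher and 167 lower. The interaction called 2066 genes (15.8%), and among the 3553 genes called in 4-OHT it called 1813, or 51.0%. For the other 1740 the difference in 4-OHT was not shown to depend on the ligand, which does not show that it was equal in vehicle.

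A set of 264 genes differed in the same direction in both comparisons with no called interaction, 141 higher and 123 lower in TFEB cells. Their median absolute log2 difference was 1.04 in 4-OHT and 1.00 in vehicle, which follows in part from how the set was chosen. At least 8-fold differences in 4-OHT were found in 23 of the higher and 33 of the lower genes. Armcx4, an armadillo-repeat gene of the X chromosome, had 80.7, 36.1 and 47.5 in TFEB cells and 1740, 1997 and 1444 in vector cells in 4-OHT, and 43.6 ± 31.5 against 1856 ± 4.57 in vehicle. Rbms1, an RNA-binding protein gene, was at 26.1 ± 11.4 against 734 ± 75.9 in 4-OHT and 11.2 ± 13.9 against 705 ± 31.5 in vehicle. The GATA-type repressor Trps1, the kinase gene Lrrk1 and the zinc finger gene Zfp362 followed the same pattern, 27.3-fold, 19.8-fold and 17.1-fold lower in 4-OHT. For all 5, TFEB libraries lay below vector libraries in 4-OHT, as the rule for naming them required. They did so in vehicle too, where the rule required a call in that direction.

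On the higher side of that set, the integrin gene Itgb3 had 1158, 764 and 1023 in TFEB cells and 10.7, 34.4 and 0 in vector cells in 4-OHT, and 103 ± 6.88 against 5.16 ± 6.04 in vehicle (interaction log2 2.29 ± 1.2 SE, limma adjusted p = 0.232). The lysosomal peptide transporter Slc15a3 had 551 ± 126 against 29.9 ± 8.60 in 4-OHT and 25.4 ± 10.3 against 5.38 ± 3.28 in vehicle. Wwc1, Ndrg1 and Stac2 were 15.3-fold, 14.4-fold and 11.1-fold higher in 4-OHT. With some other settings the interaction of Itgb3, Slc15a3, Ndrg1, Stac2 and, on the lower side, Rbms1 was called (for Rbms1 with array weights and without TFEB vehicle library 2), so for these genes equality with and without ligand was not shown. The vehicle call of Slc15a3 was lost in 9 of 25 other settings, among them without TFEB vehicle library 1 or 3, vector vehicle library 3 or TFEB 4-OHT library 3.

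Bcl2, the survival gene, differed between the lines on both sides and by an amount that itself differed. TFEB cells had 1145, 851 and 954 in 4-OHT against 20.4, 56.9 and 14.4 in vector cells, 36.6-fold higher (log2 5.19 ± 0.40 SE, limma adjusted p = 4.35e-12). In vehicle they had 2149 ± 195 against 20.2 ± 16.8, and the interaction was called (log2 -1.77 ± 0.56 SE, limma adjusted p = 0.0272). The line difference in Bcl2 was thus present without ligand and smaller with it.

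In 98 genes the lines differed in opposite directions with and without ligand, and the interaction was called in all 98. Of them 43 were lower in vehicle and higher in 4-OHT, and 55 the reverse. Actn1, an alpha-actinin, had 2457, 2287 and 2021 in TFEB cells and 229, 407 and 323 in vector cells in 4-OHT, against 51.7 ± 47.4 and 475 ± 55.6 in vehicle. Plk2, a stress-induced kinase, had 502 ± 33.2 against 41.4 ± 4.88 in 4-OHT and 9.12 ± 8.60 against 53 ± 24.8 in vehicle. Nyx, which encodes the proteoglycan nyctalopin, had 12298, 9024 and 10540 against 761, 689 and 546 in 4-OHT, and in vehicle 418 ± 92.0 against 591 ± 27.6, a vehicle call lost in 7 of 25 other settings, among them without vector vehicle library 2 or 3 or TFEB vehicle library 2. The alarmin Il33 went the other way, with 184, 114 and 124 against 700, 668 and 539 in 4-OHT and 5648 ± 167 against 694 ± 52.3 in vehicle.

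Called in vehicle and by the interaction but not in 4-OHT were 112 genes. Lrp1, a lipoprotein receptor, had 730 ± 47.2 in TFEB cells and 61.5 ± 4.17 in vector cells in vehicle, and 132, 139 and 120 against 65.5, 152 and 54.1 in 4-OHT, where vector library 2 lay above all TFEB libraries (limma adjusted p = 0.11). Ccdc135 had 823 ± 33.6 against 296 ± 38.2 in vehicle and 225 ± 15 against 218 ± 37.9 in 4-OHT. Lmna, the lamin A gene, was lower in TFEB cells in vehicle, at 58.4 ± 16.4 against 172 ± 39.9, and was at 179 ± 8.92 against 147 ± 27.0 in 4-OHT. Fam183b, at 285 ± 74.0 against 99.1 ± 35 in vehicle and 35.7 ± 21.4 against 57.0 ± 20.2 in 4-OHT, lost its vehicle call in 11 of 25 other settings, among them without any 1 of the vehicle libraries.

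**Figure D2:**
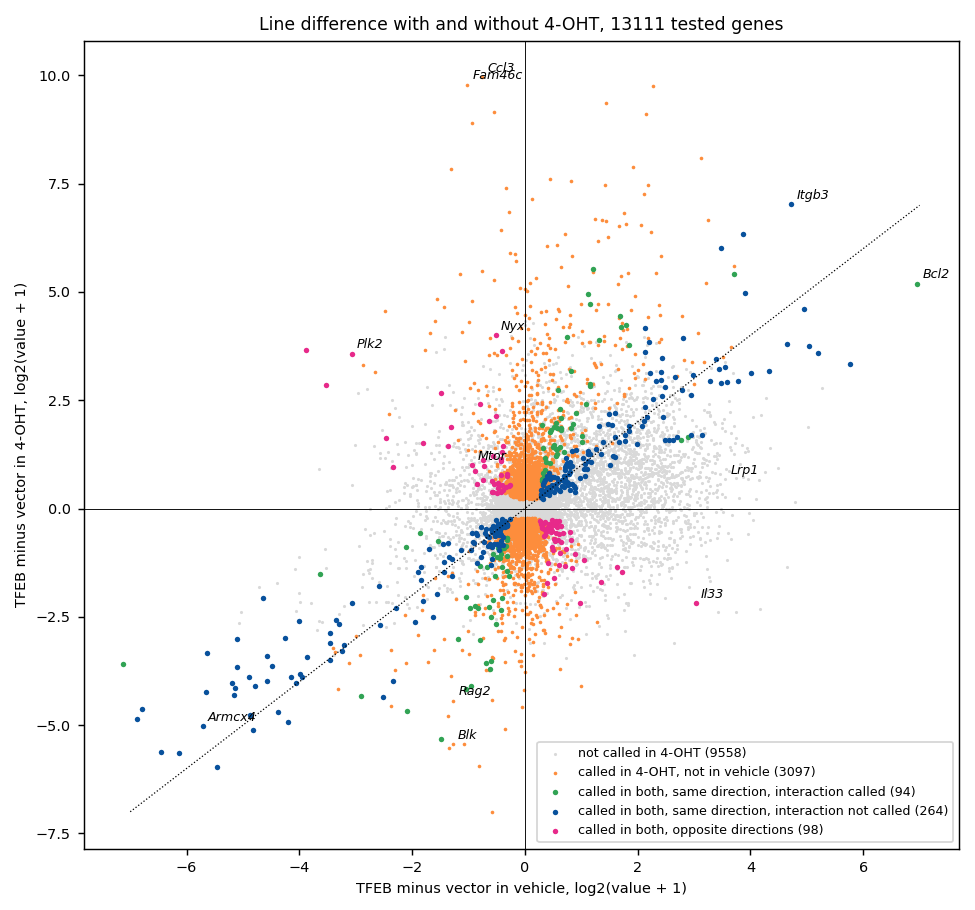
TFEB minus vector difference in 4-OHT (vertical) against that in vehicle (horizontal), log2(value + 1), for the 13111 tested genes, coloured by call, with a dotted line where both are equal. The 264 genes called in both in 1 direction without a called interaction lie in the upper right and lower left, some, such as Itgb3, off the dotted line. The 98 opposite genes lie in the upper left and lower right, and the 3097 genes called in 4-OHT only lie around 0 in vehicle.

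Lysosomal enzymes, the classical TFEB targets, were mostly higher in TFEB cells. Of 46 tested hydrolase genes 30 were higher and 1 lower, beside 13.6% higher and 13.5% lower over all tested genes, with a median log2 difference of 0.78 in 4-OHT and -0.10 in vehicle. Legumain (Lgmn), a cysteine protease, had 8712, 8681 and 8569 in TFEB cells and 1123, 1223 and 1030 in vector cells, 7.70-fold higher (log2 2.95 ± 0.10 SE, limma adjusted p = 1.41e-20). Gla, the alpha-galactosidase, had 662, 673 and 677 against 126, 219 and 129, 4.37-fold higher. Galns, a sulfatase, was 4.06-fold higher, and was lower in TFEB cells in vehicle (350 ± 98.9 against 531 ± 21.1). The 30 ranged from 1.2-fold to 7.70-fold and included cathepsins A, B, C, D and Z. The palmitoyl thioesterase Ppt1 was the member that was lower, by 1.36-fold, and 15 were not called. The interaction was called for 27 of the 31 called hydrolases.

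Lysosomal membrane and proton pump genes were also higher more often than lower. Of 34 membrane genes 15 were higher and 3 lower (Mcoln2, Rnf13 and Npc2), with a median of 0.51. Laptm5 had 11769, 10372 and 11530 against 2377, 2092 and 2353, 4.94-fold higher, and Gpnmb, a MiT-responsive glycoprotein, had 246 ± 44.7 against 2.30 ± 2.38. Cd68 had 212 ± 29.8 against 70.6 ± 15.1, and Lamp1 and Lamp2, the main structural glycoproteins, were among the 15. Of 16 V-ATPase genes, which encode the pump that acidifies lysosomes, 10 were higher and 0 lower, with a median of 0.51 in 4-OHT and -0.09 in vehicle. Atp6v0a1 had 725, 831 and 857 against 258, 228 and 183, 3.63-fold higher, Tcirg1 was 3.52-fold, Atp6v0d1 2.14-fold and Atp6v1d 1.97-fold higher. For these 4 the libraries of the lines did not overlap.

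Promoters were examined for the E-box CACGTG and for its extended form TCACGTGA, which TFEB and its relatives are known to bind. Sequences are RefSeq promoters of GRCm38.p6, from 250 bases before to 50 after the start, and both motifs read the same on either strand, with each TCACGTGA holding a CACGTG. Stretches around TCACGTGA are printed for lysosomal genes that differed most (Gla, Dpp7, Ctsd) and for those that differed least (Sumf1, Clcn6, Cln3), chosen after the values were seen, with the motif in capitals and the strand of the gene, which is minus for each.
Gla, chrX:134601204-134601255: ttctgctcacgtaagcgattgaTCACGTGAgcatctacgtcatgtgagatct
Gla, chrX:134601171-134601222: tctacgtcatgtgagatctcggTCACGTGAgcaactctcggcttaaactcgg
Dpp7, chr2:25356377-25356428: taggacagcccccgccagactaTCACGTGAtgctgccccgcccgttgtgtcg
Ctsd, chr7:142387897-142387948: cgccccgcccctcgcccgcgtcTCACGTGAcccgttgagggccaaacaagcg
Sumf1, chr6:108185584-108185617: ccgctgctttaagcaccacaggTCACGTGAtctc
Clcn6, chr4:148038814-148038861: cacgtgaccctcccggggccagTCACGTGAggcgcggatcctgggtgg
Cln3, chr7:126583329-126583380: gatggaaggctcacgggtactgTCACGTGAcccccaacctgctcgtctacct
The motif occurred at 228 to 221 and at 195 to 188 bases before the start of Gla, at 74 to 67 in Dpp7, at 99 to 92 in Ctsd, at 12 to 5 in Sumf1, at 26 to 19 in Clcn6 and at 122 to 115 in Cln3.

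Beside these sequences, the dipeptidase Dpp7 had 320, 214 and 328 in TFEB cells against 61.2, 139 and 65.1 in vector cells, and the aspartic protease gene Ctsd had 1155, 911 and 945 against 440, 453 and 369. Sumf1, which activates sulfatases, had 383, 389 and 335 against 401, 294 and 422 and was not called (limma adjusted p = 0.999). The chloride transporter gene Clcn6 (limma adjusted p = 0.993) and Cln3 (0.962) were not called either. Genes with the same 8 bases before their start were therefore found both among those that differed and among those that did not.

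Over all 27025 promoters 8.09% held CACGTG and 1.12% held TCACGTGA, and over the 10279 tested genes matched to a promoter 11.5% and 2.18% did. Among genes called higher the shares were 15% and 3.69%, among those called lower 12% and 1.2%, and among those not called 10.7% and 2.07%. Of the 76 matched genes of the 3 lysosomal lists 30.3% held CACGTG and 18.4% held TCACGTGA. Within those lists TCACGTGA was in 7 of 46 genes called higher and in 7 of 30 others. Higher genes of at least 2-fold held it in 2.08% of promoters, close to the share over all tested genes. These shares describe 300-base windows and are not binding sites.

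**Figure D3:**
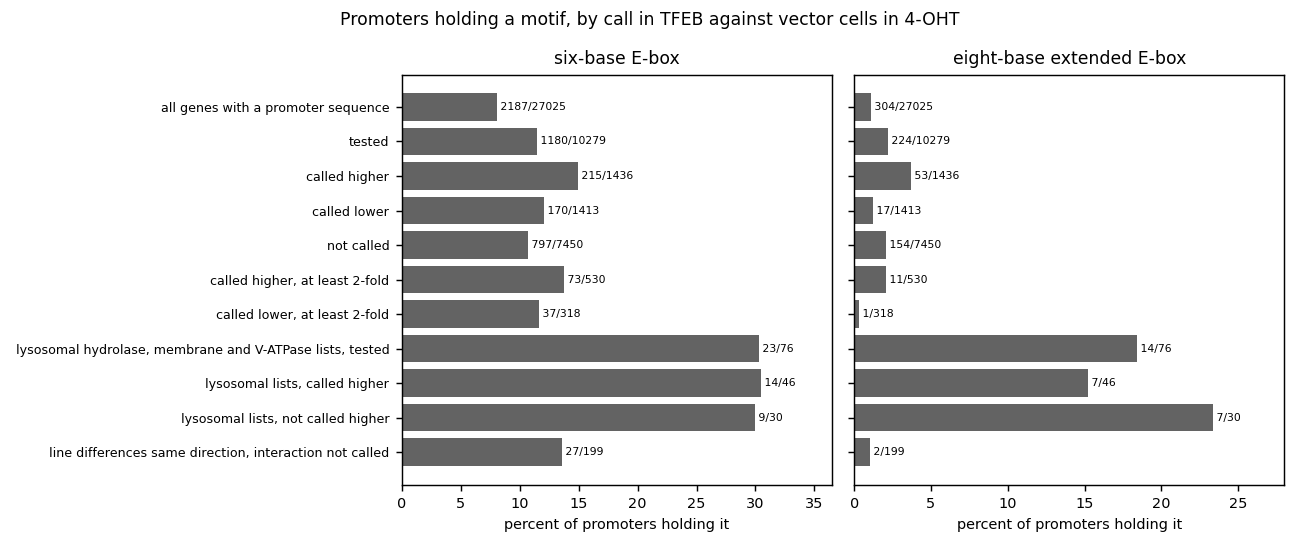
Percent of RefSeq promoters that hold the 6-base E-box (left) or its 8-base extended form (right), by the call of the gene in 4-OHT, with counts beside each bar. The tested genes of the lysosomal lists hold them in 30.3% and 18.4% of promoters, and genes called lower hold the extended form in 1.2%.

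Autophagy genes were called in both directions. Of 49 tested, 17 were higher and 5 lower, with a median of 0.05. Gabarapl1, which encodes an ATG8 protein, had 241, 217 and 288 in TFEB cells against 48.3, 43.9 and 9.30 in vector cells, 8.74-fold higher, and it was also higher in vehicle (222 ± 15.2 against 15.1 ± 10.6), with an interaction that was not called (limma adjusted p = 0.53). Optn, a cargo receptor, was 5.31-fold higher at 875 ± 49.2 against 167 ± 41.5, while in vehicle it was lower in TFEB cells (121 ± 38.1 against 206 ± 34.7). The ferritin receptor gene Ncoa4 was 3.64-fold higher, and Sqstm1, which encodes p62, 1.73-fold. Bnip3, a mitophagy receptor, was 3.47-fold lower, with 1955, 967 and 1621 against 7067, 6510 and 2777, where vector library 3 was closer to TFEB cells than the other vector libraries.

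Genes of the mTORC1 pathway, which restrains TFEB, were called in both directions. Mtor, the kinase itself, had 26203, 25000 and 25962 in TFEB cells and 13107, 11737 and 13998 in vector cells, 1.99-fold higher (log2 0.99 ± 0.08 SE, limma adjusted p = 1.54e-11). In vehicle it was lower in TFEB cells, at 6501 ± 256 against 12441 ± 520, and the interaction was 1.93 ± 0.11 SE (limma adjusted p = 3.77e-14). The Rag GTPase gene Rragd was 3.51-fold higher at 3661 ± 214 against 1042 ± 80.6, the folliculin partner Fnip1, at 1970 ± 59.9 against 658 ± 77.5, also higher, and folliculin (Flcn) 1.99-fold. Over the list 10 of 39 genes were higher and 6 lower, with a median of 0.14. Among the lower were Eif4ebp1, a translation inhibitor that mTORC1 phosphorylates, 1.87-fold, and the sestrin genes Sesn1 and Sesn3, while Sesn2 was 1.86-fold higher.

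Amino acid stress genes under ATF4 were mostly lower. Of 27 tested, 16 were lower and 4 higher, with a median of -0.64 in 4-OHT and -0.16 in vehicle. Cth, which makes cysteine, had 46.3, 33.6 and 28.1 against 295, 307 and 186, 7.11-fold lower. The pseudokinase gene Trib3 was 5.53-fold lower, with 24.8, 24.5 and 46.6 against 220, 281 and 83.7, and Chac1, a glutathione-degrading enzyme, 4.1-fold. Atf5, itself a transcription factor of the ATF family, went the other way, 10.4-fold higher at 1060 ± 55.1 against 103 ± 24.2. Aminoacyl-tRNA synthetases were lower in 13 of 20 genes and higher in 0, by 1.19-fold to 1.76-fold, with Yars (1.76-fold), Cars (1.74-fold), Vars (1.70-fold) and Gars (1.59-fold) first. Among 19 amino acid transporters 4 were higher and 6 lower. Slc1a5 and Slc38a1 were 1.67-fold and 1.79-fold higher, and Slc1a4 and the glycine transporter Slc6a9 were 2.52-fold and 2.14-fold lower. Of the relatives of Slc38a1, Slc38a2 was also among the lower genes and Slc38a7 was not called.

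In energy metabolism, glycolysis and the mitochondrial lists differed. Of 27 glycolysis genes 12 were lower and 2 higher, with a median of -0.38 in 4-OHT and 0.25 in vehicle. Pdk1, which restrains pyruvate dehydrogenase, had 3694, 2615 and 2812 against 6487, 6935 and 4584, 1.96-fold lower, and Pgk1 was 1.78-fold lower. For 4 of the 12 the lines' libraries overlapped, and the number called lower was 7 without the most-detected library of each group, meaning the one with reads in the largest number of genes, and 7 without a variance trend. The muscle enolase gene Eno3 was 5.46-fold higher and Pfkfb2 2.00-fold. In the TCA cycle and PGC-1 list 6 of 27 were higher and 2 lower, so 29.6% were called, near the 27.1% over all tested genes. Idh2, a mitochondrial isocitrate dehydrogenase, was 1.57-fold lower. Ppargc1b, a relative of Ppargc1a, was at 458 ± 45.3 against 331 ± 48.0, a call lost in 6 of 25 other settings, among them without vector library 2 or TFEB library 1 or 3. Of 40 respiratory chain and ATP synthase genes 7 were higher and 2 lower, so 22.5% were called, below the 27.1% over all tested genes, and the median was -0.02. The number higher was 3 without TFEB library 1 or 3 and 4 without vector library 1 or 3. The number lower was 1 without TFEB library 1 or 3 and 0 without vector library 3. The largest differences there were 1.48-fold higher for Ndufb3 and 1.31-fold lower for Uqcrfs1, whose call was lost without vector library 3 or TFEB library 1 or 3.

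Biosynthetic genes were lower where they serve nucleotides, and mixed where they serve lipids. In nucleotide synthesis 18 of 33 genes were lower and 1 higher, with a median of -0.38. Thymidine kinase (Tk1) was 2.13-fold lower, deoxycytidine kinase (Dck) 2.09-fold and Shmt1 1.89-fold. The 1 higher gene was Adssl1, the muscle form of adenylosuccinate synthase, with 1480, 1540 and 1688 against 266, 330 and 266, 5.46-fold. Of 35 sterol and fatty acid genes 6 were higher and 9 lower, led by the desaturase Fads2 (3.46-fold lower), the elongase Elovl6 (1.65-fold lower), Insig1, which restrains SREBP processing (2.10-fold higher), and Idi1 (1.57-fold higher). The count of higher genes there was 3 without TFEB library 3. Genes of the unfolded protein response were higher in 13 of 28 and lower in 4, with a median of 0.28. Xbp1, its transcription factor, had 10636, 11058 and 10686 against 1957, 2182 and 2525, 4.88-fold higher, Edem1 was 2.82-fold and Pdia3 1.69-fold higher, and Derl3 was 2.08-fold lower. Without the most-detected library of each group, 7 of these 28 were called higher.

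Mitosis and DNA replication genes were called in 1 direction, lower. All but 1 of 34 mitosis genes were called lower and 0 higher, with a median of -0.63 in 4-OHT and 0.01 in vehicle, and in single-library and other alternatives 27 to 33 were lower. Cdc20 was the gene not called (791 ± 54.3 against 942 ± 175). Aurkb, a mitotic kinase, had 364, 396 and 409 against 841, 750 and 914, 2.13-fold lower, and Nusap1, Ndc80 and Birc5 were 2.11-fold, 2.1-fold and 1.96-fold lower. Of 34 DNA replication genes 24 were lower and 0 higher, with a median of -0.50. E2f2, a transcription factor of S phase entry, had 888, 790 and 896 against 3481, 3183 and 3680, 4.01-fold lower, and the helicase component Gins2 was 2.61-fold lower. No mitosis or replication gene was called in vehicle, and the interaction was called for 22 of 34 and 14 of 34.

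Regulators of the G1 phase were among the largest differences of abundant genes. Cyclin D3 (Ccnd3) had 2950, 2287 and 2554 in TFEB cells and 14661, 12492 and 14728 in vector cells, 5.39-fold lower (log2 -2.43 ± 0.10 SE, limma adjusted p = 6.74e-19). In vehicle the lines had 13798 ± 1617 and 13537 ± 1065. Its partner kinase gene Cdk6 was 3.41-fold higher at 4430 ± 114 against 1304 ± 153, the repressor E2f7 2.24-fold lower, and the tumour suppressor locus Cdkn2a 2.06-fold higher. In that list 3 of 19 genes were higher, near the 13.6% over all tested genes, and 8 were lower, beside 13.5%. The median of the list was 0.05.

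Histone genes of the replication-dependent clusters, a group chosen after the values were seen, were lower in 52 of 57 tested genes and higher in 0. Over all tested genes 13.5% were lower and 13.6% higher. The histone median was -0.83 in 4-OHT and -0.27 in vehicle. Of the 57, 46 lie on chromosome 13, which had 21.4% of its tested genes lower and 11.1% higher. Without the histone genes the shares were 13.4% and 12.2%, and its median went from -0.07 to 0.01. Over the other autosomes and the X chromosome the medians ran up to 0.09, on chromosome 16.

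Myc had 27312, 26176 and 25548 in TFEB cells and 29680, 32175 and 31308 in vector cells, 1.18-fold lower with no overlap (log2 -0.24 ± 0.08 SE, limma adjusted p = 0.0339). Its call was lost in 7 of 25 other settings, among them without vector library 2 or 3 and without TFEB library 1, 2 or 3, over adjusted p from 0.00112 to 0.236. Reads of the transgene and of the endogenous gene cannot be divided. Mxd1, which competes with MYC for the shared partner MAX, had 6570, 5597 and 6178 against 240, 229 and 246, 25.5-fold higher (log2 4.67 ± 0.15 SE, limma adjusted p = 1.25e-20). In vehicle it was at 334 ± 92.4 and 307 ± 39.1. Mnt, a further MAX partner, was 1.55-fold higher and Mxi1 1.85-fold lower. Of 35 genes of the MYC network and its targets outside the nucleolus 20 were lower and 5 higher, with a median of -0.29, and the aminotransferase gene Bcat1 was 3.75-fold lower. Without vector library 2 the number higher was 2, and without TFEB library 1 or 3 it was 3. Of 45 ribosome biogenesis genes 12 were lower and 2 higher, with a median of -0.18 in 4-OHT and -0.14 in vehicle, by at most 1.62-fold (Polr1e). So 31.1% of them were called, near the 27.1% over all tested genes. The number higher was 1 or 0 without vector library 1 or 2 or TFEB library 1 or 2.

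**Figure D4:**
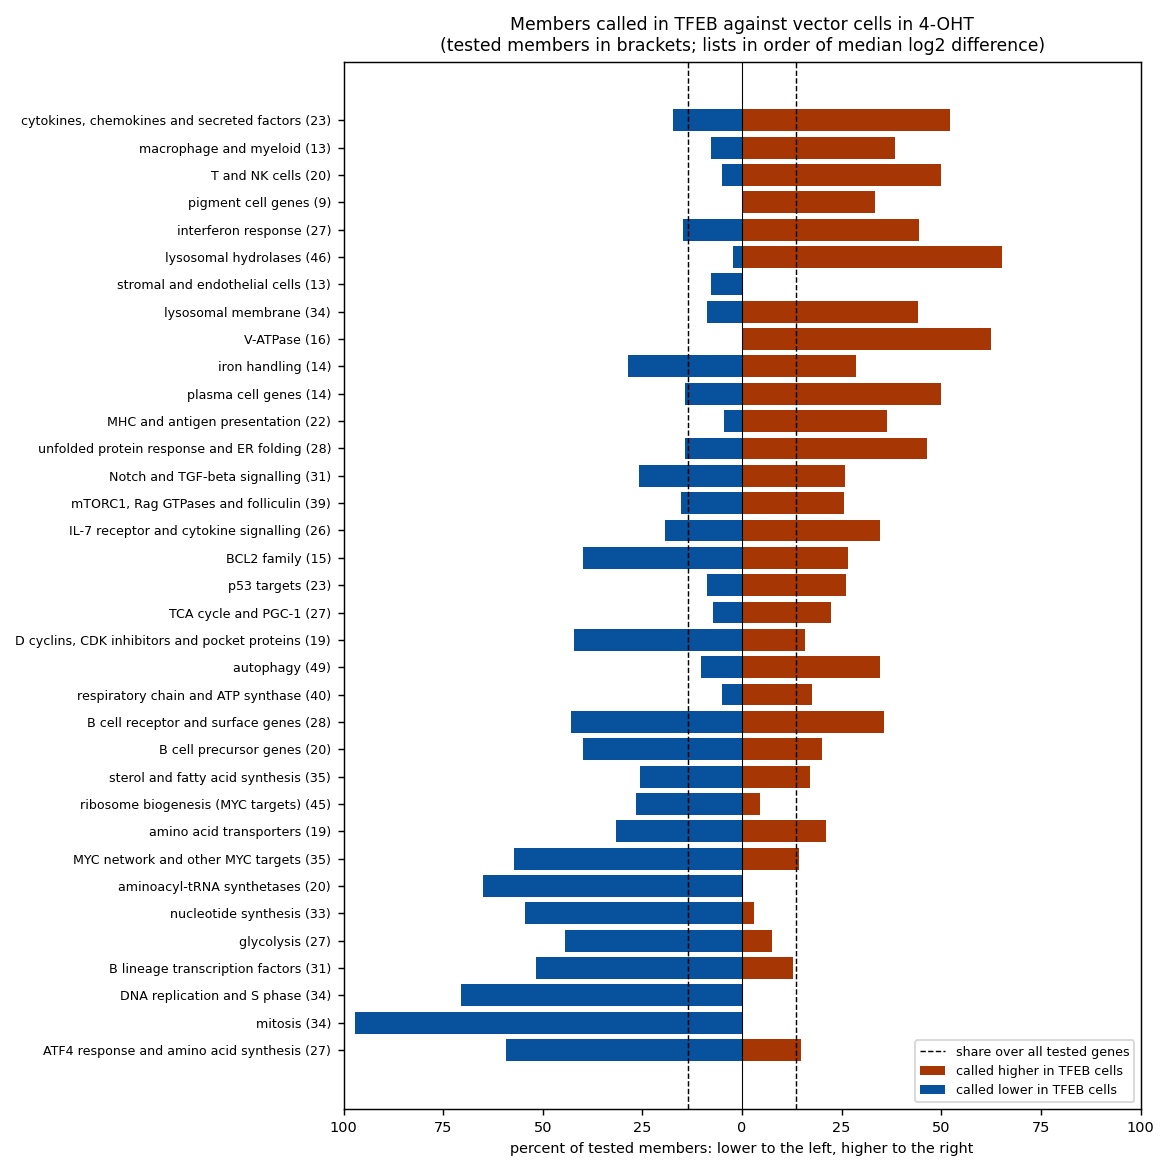
Percent of tested members called higher (right) and lower (left) in TFEB against vector cells in 4-OHT for each list with at least 9 tested genes, ordered by median log2 difference, with dashed lines at 13.6% and 13.5%, the shares over all tested genes. Lysosomal hydrolase and V-ATPase genes lie far right, and mitosis and DNA replication genes far left.

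Survival genes of the BCL2 family changed in opposing directions. Besides the higher Bcl2, its antiapoptotic relative Bcl2l1, which encodes BCL-XL, had 171, 191 and 210 in TFEB cells and 1635, 1341 and 1496 in vector cells, 7.79-fold lower (log2 -2.96 ± 0.12 SE, limma adjusted p = 6.7e-19). In vehicle it was at 1294 ± 89.6 and 1418 ± 43.3. The proapoptotic gene Bmf was 3.02-fold lower, and Mcl1 was not called (6429 ± 240 against 6146 ± 135). Of the 15 tested genes of the family 4 were higher and 6 lower, so 66.7% were called, beside 27.1% over all tested genes. Among 23 p53 targets 6 were higher and 2 lower, with a median of 0.09, so 34.8% were called, beside 27.1% over all tested genes. Besides Plk2 the higher ones included Plk3 (84.4 ± 46.8 against 11.2 ± 4.52) and Pmaip1 (1.8-fold higher).

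Transcription factors of the B lineage were lower more often than higher, 16 against 4 of 31 tested, with a median of -0.40 in 4-OHT and 0.07 in vehicle. Id3, an inhibitor of E proteins, had 91.5, 51.6 and 59.2 in TFEB cells and 878, 796 and 799 in vector cells, 12.4-fold lower. Pou2f2 was 5.54-fold lower and Mef2c 3.33-fold. The founding factors Ebf1 (2306 ± 82.6 against 5644 ± 255) and Pax5 (2120 ± 310 against 4522 ± 147) were 2.45-fold and 2.15-fold lower, and Ikzf1 was not called. Prdm1, the plasma cell repressor of the B cell program, had 52.7, 105 and 78.6 against 14.0, 26.1 and 0, a call lost in 6 of 25 other settings including the edgeR fit and the removal of vector library 3 or TFEB library 2 or 3. The number of factors higher was 2 without TFEB library 3.

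Of 20 genes of B cell precursors 8 were lower and 4 higher. Rag1 had 124, 89.1 and 70.8 against 979, 1172 and 647, 9.74-fold lower, and Vpreb3 and the ectoenzyme Bst1 were 5.84-fold and 3.42-fold lower. Igll1, a surrogate light chain gene, was 3.34-fold lower, whereas Il7r, the receptor of the interleukin-7 in the medium, was not called (2665 ± 174 against 2284 ± 339, limma adjusted p = 0.0691). B cell receptor and surface genes were split, with 12 of 28 lower and 10 higher. Siglecg, an inhibitory lectin, was 11.8-fold lower, Cd38 4.70-fold and Cd79b 2.57-fold, while the lymph node homing receptor Ccr7 had 2204, 2070 and 2018 against 155, 229 and 161, 11.7-fold higher. In vehicle Ccr7 was at 145 ± 10.1 and 207 ± 39.7. Plasma cell genes were higher in 7 of 14 and lower in 2, with Fam46c, Cd28, Prdm1, Xbp1 and Edem1 among the higher. The lower ones were Slamf7 (2.21-fold) and Derl3 (2.08-fold). Irf4, Igj, Creb3l2, Fkbp11 and Ssr4 were not called, and 3 further genes of the list were not tested.

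Some cytokine signalling genes that STAT factors induce were lower, while other genes of the list, among them several receptors and kinases, were higher. Socs3 had 59.2, 77.4 and 39.8 against 287, 326 and 297, 5.26-fold lower. Cish was 2.60-fold lower in 4-OHT (360, 170 and 211 against 579, 556 and 717) and higher in TFEB cells in vehicle (1073 ± 102 against 606 ± 88.9). Il10ra was 4.89-fold and the kinase gene Pim1 2.12-fold lower. In that list 9 of 26 genes were higher and 5 lower. The higher ones were at most 1.74-fold, among them Socs2, Il2ra, Stat5a, Stat5b and Jak3, and Pim2 was not called.

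**Figure D5:**
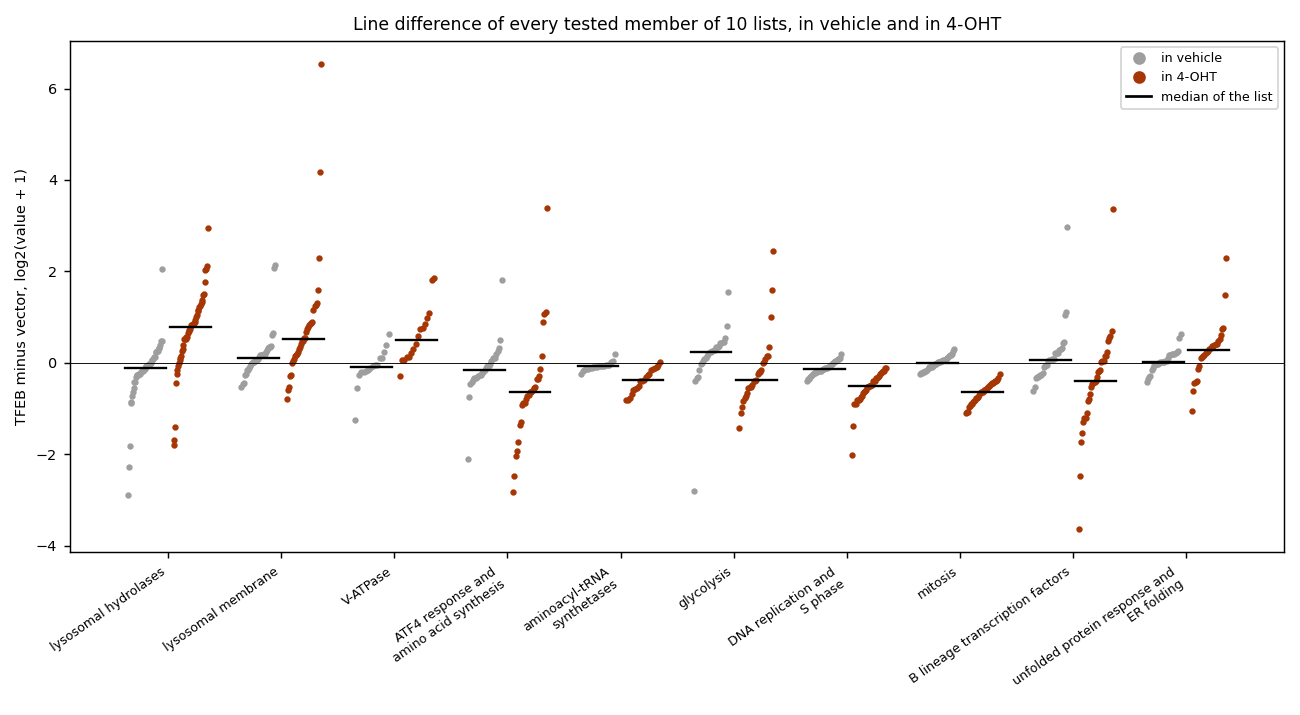
TFEB minus vector difference, log2(value + 1), of every tested member of 10 lists in vehicle (grey) and in 4-OHT (brown), sorted within each list, with a line at the list's median. Medians in 4-OHT run from 0.78 for lysosomal hydrolases to -0.64 for ATF4 genes.

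Markers of other cell types were measured because several genes used as such markers were among the largest rises. Of 34 macrophage and myeloid genes 13 were tested, of which 5 were higher (Lilrb4, Gp49a, Gpnmb, Csf1r and Cd68) and 1 lower (Mrc1). The summed level of all 34 was 2470 to 3202 in TFEB libraries and 392 to 523 in vector libraries, and without Lilrb4 and Gp49a it was 746 to 1186 against 392 to 521. Among the others, Tyrobp (40.9, 63.2 and 53.4 against 32.2, 5.93 and 19.4) and Fcgr3 (16.1, 16.8 and 11.6 against 0) were not called but had TFEB libraries wholly above vector libraries. Itgam, Itgax and Aif1 reached 77.4, 45.2 and 38.7, each in TFEB library 2. Of the 34 genes, 13 stayed under 10 in all 6 libraries. Among these, Lyz2, C1qa, C1qb, Mpo and S100a8 had at most 5.16, 5.93, 7.12, 7.74 and 3.88. Other macrophage markers reached more, Emr1 34.4 in vector library 2. In TFEB library 2, Mpeg1, Marco, Lyz1, Msr1 and Cd14 reached 24.5, 21.9, 19.4, 16.8 and 15.5. The call of Csf1r, at 29.2 ± 7.33 against 2.77 ± 4.79, was lost in 10 of 24 other settings, among them without any 1 of the TFEB libraries or vector library 1 or 3. Of 35 T and NK cell genes 20 were tested, with 10 higher and 1 lower (Cd2), and the sums were 4737 to 4930 against 1374 to 2003. Tcf7, a transcription factor of T cells, had 1430, 1367 and 1131 against 7.51, 10.7 and 6.76, and Pdcd1, which encodes PD-1, 240, 188 and 222 against 0, 3.56 and 10.1. The T cell receptor component Cd247 had 879, 737 and 751 against 458, 428 and 329, the kinase gene Zap70 was 6.16-fold higher and the adaptor gene Lat 3.18-fold, all called. The receptor components Cd3d, Cd3e and Cd3g had at most 24.5, 20.2 and 20.2, and Cd8a at most 9.30. Stromal and endothelial genes summed to 1430 to 1805 against 1479 to 2113, with 0 of 13 higher and Pecam1 lower by 1.25-fold, a call lost in 13 of 25 other settings, among them without vector library 1 or 3 or TFEB library 2 or 3. Of 13 erythroid and platelet genes 1 was tested (Itga2b, not called), and the haemoglobin genes Hbb-bs, Hbb-bt, Hba-a1 and Hba-a2 were at 0 in all 6. The part of the cells these markers stand for in the other differences was not tested.

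Pigment cell genes, a list that holds Mitf itself beside other genes of melanocytes, were higher in 3 of 9 tested and lower in 0. So 33.3% were called, beside 27.1% over all tested genes. Pmel, which encodes a melanosome matrix protein, had 1076, 999 and 872 in TFEB cells and 1.07, 36.8 and 0 in vector cells, and Trpm1, a cation channel, 638, 675 and 636 against 0, 35.6 and 0. The call of Trpm1 was lost in DESeq2 (adjusted p = 0.132). Vector library 2, the vector library in 4-OHT with reads in the most genes, held nearly all vector reads of both. Sox10 was at 0 in all 6 libraries, and the melanin enzyme genes Tyr, Tyrp1 and Dct had at most 11.9, 23.2 and 7.74. The list's summed level was 3053 to 3433 against 1245 to 1809.

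Immune recognition genes were higher more often than lower. In antigen presentation 8 of 22 genes were higher and 1 lower, including H2-K1, a class I gene (1.83-fold), and Cd74, the invariant chain, which had 2110, 2001 and 2609 against 1167, 706 and 767 in 4-OHT and was also higher in vehicle (1496 ± 322 against 623 ± 115). The class II gene H2-Aa had 139 ± 45.9 against 41.4 ± 15, a call lost without TFEB library 3, and H2-Ob was 1.95-fold lower. Interferon response genes were higher in 12 of 27 and lower in 4, namely Ifitm1 (8.21-fold), Gbp2, Gbp3 and Tmem173. The list's summed level was 7887 to 8573 in TFEB libraries and 8033 to 9483 in vector libraries. The interaction was called higher for 2 members and lower for 5. Oas1a, a sensor of double-stranded RNA, had 107, 98.1 and 48.5 and was at 0 in vector cells, at least 23.7-fold higher, and Oasl1, a relative, had 295 ± 27.1 against 23.6 ± 24.6. Oas2 lost its call in 8 of 25 other settings, among them without any 1 of the TFEB libraries or vector library 1, and 7 interferon genes were higher without the most-detected library of each group. Among 23 cytokine and secreted factor genes 12 were higher and 4 lower, the higher ones including Tnf (121 ± 9.72 against 12.5 ± 6.07).

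Notch and TGF-beta genes moved in both directions, 8 of 31 higher and 8 lower. Heyl, a Notch-responsive repressor, had 0, 7.74 and 0.97 in TFEB cells and 127, 195 and 156 in vector cells (log2 -5.93 ± 0.53 SE, limma adjusted p = 1.38e-10), and Hes1 and Notch1 were 2.32-fold and 1.5-fold lower. The TGF-beta receptor gene Tgfbr2 had 3141, 3273 and 3261 against 823, 715 and 628, 4.49-fold higher. The ligand gene Dll1, at 16.1, 37.4 and 19.4 against 0 in all vector libraries, was called (limma adjusted p = 0.04), at least 6.83-fold higher, and lost the call in 14 of 24 other settings, among them without any 1 of the TFEB libraries or vector library 1 or 3. Jag2, a second Notch ligand, was at 87.0 ± 11.2 against 20.9 ± 22.

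Iron genes were called in both directions. The ferritin subunits Ftl1 and Fth1, which store iron, were 2.78-fold and 2.71-fold higher, at 15450 ± 252 against 5577 ± 678 and 11089 ± 613 against 4093 ± 83.9, and Ncoa4, which delivers ferritin to lysosomes, was higher as given above. The transferrin receptor Tfrc, which takes iron up, had 2743, 2980 and 2903 against 6121, 6996 and 9308, 2.56-fold lower, and the endosomal reductase Steap3 was 2.17-fold lower. Of 14 iron genes 4 were higher, 4 lower and 6 not called, among the last the iron importer Slc11a2 and the second transferrin receptor Tfr2, and the interaction was called for 7 of these 8.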

How the data were processed

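For every gene the authors deposited a signal in each library, made by dividing gene read counts by 1 size factor per library, as read from the values: in each library 100% of them are whole multiples, within 0.001, of the smallest value. DESeq2 1.6.3, HTSeq 0.6.1, STAR 2.5.3 and the build mm10 are listed per the submitters' processing notes. The sources used here do not give their roles, the annotation or the strand setting. Per the labels' protocols, libraries came from total RNA with a NuGEN Ovation mouse kit. The library totals were 11849029 to 22109283 reads, and 3 reads, the limit that a count of 0 allows, equal 2.21 to 4.15 normalized counts. Floors cover counting error only.

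Genes reaching 10 in 3 or more of 12 libraries were tested with limma 3.58.1 (R 4.3.3) on log2(value + 1), with 1 mean for each of 4 groups, a variance trend, 8 residual degrees of freedom and Benjamini-Hochberg adjustment over the 13111 genes. Fold changes are on that scale and understate or overstate changes of low genes. The script was tested on simulated data. The 3 comparisons were the line difference in 4-OHT, that in vehicle, and their difference (interaction). The fit was repeated on recovered whole reads with the quasi-likelihood test of edgeR 4.0.16, which called 3353 genes in 4-OHT, and with DESeq2 1.42.0 (4004 genes). Other alternatives were pseudocounts of 0.5 and 10, no filter, a minimum of 50, only the groups compared, TMM or upper-quartile scaling, no variance trend, array weights, a replicate block, each library left out, and the library with the most genes with reads left out of every group, 25 in all.

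The comparison, the 38 gene lists (1083 of 1096 entries found, 10 under another symbol) and the tests were chosen with earlier results of these data known, so list counts are descriptions, read beside the share over all tested genes. The genes named are Tfeb, Esr1, Myc and the MiT relatives, then those with the largest differences among called genes with a mean of at least 100 and groups that do not overlap (12 in each direction, 5 in each direction for line differences, 4 opposite, 4 called in vehicle only), and up to 4 of each list. Other members were named after their values were seen, as were the promoters printed. Immunoglobulin constant genes are not analysed here. Results of some genes that the rule names are not reported here. Promoters and chromosomes are from RefSeq GRCm38.p6 by symbol, matching 10279 and 13055 tested genes. Replicate numbers were not used as pairs. Deviations of same-numbered libraries correlated at -0.115 to 0.165 over 7794 genes, and those of differently numbered libraries at -0.232 to 0.190. Weak correlation cannot show that the samples were unpaired.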

Additional observations from a re-analysis of the deposited data

Results flagged for a closer look

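The line difference in 4-OHT and that in vehicle differed, by limma's interaction term, in 2066 genes. Of the 159 named genes that were tested, 117 had a called interaction, positive in 57 and negative in 60. It ran from 10.81 on the log2 scale for Fam46c to -5.22 for Il33. For 9 named genes the lines differed in opposite directions with and without ligand. Their interactions were 6.65 for Plk2, 6.38 for Actn1, 4.52 for Nyx, 3.21 for Optn, 2.66 for Galns, 1.93 for Mtor and 1.06 for the glutamine transporter Slc1a5, all lower in TFEB cells in vehicle and higher in 4-OHT. They were -5.22 for Il33 and -2.21 for Cish, which were higher in vehicle and lower in 4-OHT.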

How the results depend on the processing

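The number of genes called in 4-OHT (3553) was 2783 to 4185 under 25 alternatives, within 1.5 times throughout, and 3235 of the calls (91.0%) were shared with edgeR. Leaving out 1 library gave 2973 to 3752. The share of calls that were higher was 45.2 to 52.8%. The vehicle count (705) was 1214 with DESeq2, 1125 with array weights, 352 with only the groups compared, 259 without a variance trend and 433 to 824 with 1 library left out, being 439 and 433 without vector vehicle library 2 or 3 and 466 without TFEB vehicle library 2. The interaction count (2066) was 1098 without the most-detected library of each group. The replicate block gave 3548, 723 and 2094 genes in 4-OHT, vehicle and interaction, although whether the replicate numbers pair the samples is unknown. Of 151 named genes called in 4-OHT, 139 kept the call in every alternative and 12 lost it in at least 1. Reversals occurred in differences that were not called. Tfe3 in 4-OHT (0.23) was -0.25 in edgeR, -0.21 in DESeq2, -0.017 with a pseudocount of 10 and -0.95 to 1.67 with 1 library left out. Ccdc135 (0.06) was -0.084 to 0.17, and -0.031 without the most-detected libraries, and Itga2b (-0.25) was -0.66 to 0.15. Interactions of Trps1, Armcx4, Lrrk1 and Zfp362 were -0.58 to 0.66, -0.036 to 1.25, -0.38 to 2.61 and -0.055 to 1.2 with 1 library left out, and that of Trps1 was -0.82 without the most-detected libraries. For these changes the cause was not tested. Genes with a mean under 50 were called in 4.87% of cases and the called ones had a median fold of 10.3, so low levels limited which differences could be called.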

Other observations

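Tgfb3, a TGF-beta ligand gene chosen after its values were seen, was at 26.8, 820 and 12.7 normalized counts in the 3 vector libraries in 4-OHT and at 68.9, 20.7 and 22.3 in the TFEB libraries, with group means of 1311 and 1203 in vehicle. The line difference in 4-OHT was not called (log2 -1.05 ± 0.73 SE, limma adjusted p = 0.341), and vector library 2 alone was near the vehicle level. In vector library 3, Bnip3 (2777 against 7067 and 6510), Trib3 (83.7 against 220 and 281) and Pdk1 (4584 against 6487 and 6935) were nearer to the TFEB libraries than in the other vector libraries.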
